A study of Mus musculus with 36 samples.

Results

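ATF4 is the transcription factor through which cells answer a shortage of amino acids, and 34 mouse genes of this response, Atf4 itself and 33 genes named as its targets or partners, were followed through a study of the vesicle-trafficking protein VPS15. The genes were chosen by name as members of this response. The rule uses no measured value, but the choice was made with earlier results of these data known. All 34 were found among the 136300 genes of the liver table and among the 32266 genes of the fibroblast table. Polyadenylated RNA was sequenced from 12 livers and from 24 cultures of mouse embryonic fibroblasts (MEFs), 3 libraries in each of 4 liver groups and 8 MEF groups. The livers came from 4-week-old male mice killed at zeitgeber time 14, in the dark phase. They were labelled WT or Vps15LKO (Vps15iLKO in the series text), the latter Ttr CRE+ Vps15f/f and here called KO, in which Cre is driven in the liver from the transthyretin gene's control region. Mice of each genotype were fed ad libitum or fasted for 24 h. The MEFs were all Vps15f/f and received an adenovirus that carried GFP (labelled WT) or CRE (labelled Vps15KO). They were grown with serum beforehand, and under each virus they were then kept in serum-free high-glucose medium (basal), in methionine-free medium for 4 h, or in that medium followed by 1 h or 4 h with methionine returned. The labels name only 1 MEF line for the 24 cultures.

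ATF4 is the main effector of the integrated stress response. Kinases that sense uncharged tRNA (GCN2), misfolded protein in the endoplasmic reticulum (PERK), haem shortage or viral RNA phosphorylate the initiation factor eIF2, which slows translation in general while the Atf4 messenger, through its upstream open reading frames, is translated more. The protein then pairs with C/EBP or other leucine-zipper partners on a composite element in its targets, many of which make, import or save amino acids. In liver these genes are known to respond to protein intake, fasting and mitochondrial stress. Because much of the control of ATF4 lies in translation, the level of its messenger need not follow its activity.

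The 34 genes were ordered by role. A group of 10 holds transcription factors and feedback genes: Atf4, Ddit3 (CHOP), Atf3, Atf5, Cebpb, Cebpg and Nupr1 bind or assist at DNA, Trib3 is a pseudokinase that restrains ATF4, Ppp1r15a (GADD34) brings a phosphatase to eIF2, and Chac1 breaks down glutathione. Another 10 are enzymes of amino acid and one-carbon metabolism: Asns makes asparagine, Phgdh, Psat1 and Psph make serine, Shmt2 and Mthfd2 run mitochondrial one-carbon metabolism, Aldh18a1 and Pycr1 make proline, Cth makes cysteine from cystathionine, and Gpt2 is a mitochondrial alanine aminotransferase. The 8 carriers are Slc7a11 (cystine in exchange for glutamate), Slc7a5 and its heavy chain Slc3a2 (large neutral amino acids), Slc7a1 (cationic amino acids), Slc1a4, Slc1a5 and Slc38a2 (small neutral amino acids) and Slc6a9 (glycine). Sesn2 and Ddit4 (REDD1) restrain the growth kinase mTORC1, and Eif4ebp1 (4E-BP1) holds back cap-dependent translation. The last 3, Vldlr, Stc2 and Gdf15, encode a lipoprotein receptor, a secreted glycoprotein and a stress hormone.

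The composite element has the core TGATGNAA, or TTNCATCA when read on the other strand, where N is any base. The RefSeq promoter windows (build GRCm38.p6), from 250 bases before to 50 bases after a transcript's start, were searched for it on both strands. It was the only motif searched, so no overlap with another motif was examined. A window is set on the start of a RefSeq transcript, some genes have more than 1, and a gene counted as holding a match when any of its windows did. Windows were at hand for 30 of the 34 genes, and 9 of these 30 held a match, against 1219 of 27025 genes (4.51%) with a window. The matches are shown because their 9 genes, among them Slc7a11, Chac1 and Trib3, all take part in the changes described further on, each in a 30-base stretch on the gene's own strand with the match in capitals. A match is a description of the letters and not evidence that a factor was bound there.
Asns (chr6:7693214-7693243, match starting at −23 from the start of its window's transcript): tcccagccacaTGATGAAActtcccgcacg
Atf3 (chr1:191183425-191183454, at −110): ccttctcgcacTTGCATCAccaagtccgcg
Chac1 (chr2:119351038-119351067, at −193): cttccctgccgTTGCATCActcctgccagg
Nupr1 (chr7:126625562-126625591, at −110): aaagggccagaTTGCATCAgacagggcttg
Pycr1 (chr11:120643833-120643862, at −103): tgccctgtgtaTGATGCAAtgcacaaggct
Slc1a4 (chr11:20332699-20332728, at −4): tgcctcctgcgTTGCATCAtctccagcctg
Slc7a11, first match (chr3:50443661-50443690, at −66): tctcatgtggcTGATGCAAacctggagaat
Slc7a11, second match (chr3:50443642-50443671, at −47): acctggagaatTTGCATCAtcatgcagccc
Trib3 (chr2:152344028-152344057, at 14): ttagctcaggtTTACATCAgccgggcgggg
Vldlr (chr19:27216809-27216838, at −200): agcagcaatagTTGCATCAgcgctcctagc

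For Atf3 and Nupr1 the transcript start of the window lies inside the gene as GENCODE bounds it, downstream of the gene's outermost start. Vldlr has 2 windows, and the match is in the second, also downstream of the gene's outermost start; the first held none. Most of these matches have the form with a cytosine at the free base, and Asns and Trib3 differ there. The 2 Slc7a11 matches face each other on opposite strands. By role, 4 of 10 transcription factor and feedback genes with a window, 2 of 9 enzymes, 2 of 6 carriers and 1 of 3 secreted or surface genes held a match. Of the other gene lists followed here, 5 of 9 cytosolic tRNA synthetases and 5 of 13 further ATF4 targets held one. Among 13 chaperones of the endoplasmic reticulum under ATF6 and XBP1, and 10 genes of the eIF2 kinases, eIF2B and the eIF2 phosphatase, no window held these letters.

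Liver values are CPM, counts per 1000000 of the library's total after scaling by trimmed means, with totals of 9110836 to 12870944 counts per library. The letters a, b and c name the libraries of a group. A liver difference is a log2 difference with its standard error from edgeR's quasi-likelihood test, MEF values are the deposited log2-scale values tested with limma, and a gene passed when its Benjamini-Hochberg adjusted p over all genes tested was under 0.05. With 3 libraries a group and nothing in the labels on how far the samples of a group are independent, p-values measure the spread between these samples. The gene of VPS15, Pik3r4, was not called between genotypes in liver (fed 0.18, adjusted p = 0.312; fasted −0.08, adjusted p = 0.663), and gene-level counts do not show whether single exons were deleted, so the labels are used as given. Hepatocyte markers summed to 33705 to 35695 CPM in fed WT, 43265 to 44524 in fasted WT, 13237 to 15745 in fed KO and 14128 to 16666 in fasted KO livers, and 9 of 10 (fed) and 10 of 10 (fasted) were lower in KO. Macrophage markers summed to 1440 to 1864, 489 to 678, 2686 to 3064 and 2329 to 2749 CPM in the same order, with 8 and 10 of 10 higher in KO. Markers of stellate cells and fibroblasts, 1 list also used for the MEFs, summed to 269.9 to 304, 112 to 120.3, 531 to 777 and 429 to 526 CPM. Ductal markers summed to 50.9 to 57.3, 43.3 to 51.5, 143 to 211 and 165 to 222. The ductal list also summed to 2170 to 2250 CPM in the MEF columns headed GFP basal, so it does not single out ductal cells. The part of these cell types in the results below was not tested. In bulk RNA, fewer cells of a type and less RNA per cell cannot be told apart.

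Atf4 (chr15:80255184-80257541, GRCm38) was lower in fed KO than in fed WT livers and was not called between genotypes after the fast. Its CPM were 143, 149 and 159.6 in fed WT and 79.3, 107 and 109 in fed KO livers. The fed groups did not overlap, at a log2 difference of −0.61 ± 0.16, adjusted p = 0.00622. Scaled by library size alone, all genes together had a median of 0.39 in this comparison, and the Atf4 difference was −0.23 and not past the threshold (adjusted p = 0.236). Fasted livers held 142, 144 and 145 CPM in WT and 152, 110.4 and 186 in KO. Here the WT libraries lay close together and inside the wide KO range, with fasted KO library b at the bottom. The genotypes differed after the fast by 0.06 ± 0.16, adjusted p = 0.778; without fasted KO library c the estimate was −0.12, and with library sizes alone 0.57 (adjusted p = 0.00664).

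In fed livers most of the other genes that passed went opposite to the Atf4 messenger. In fed KO livers, where Atf4 was lower, 21 of its 33 partners and targets rose and 3 fell; of all 23875 genes tested 46.3% passed, 23.4% higher and 23.0% lower. The median of the 34 differences was 1.26, beside 0.01 over all genes. In fasted livers 24 of the 33 rose and 5 fell in KO, with a median over the 34 of 1.88, and 56.2% of all genes passed, 28.2% higher and 28.1% lower. With library sizes alone the split over all 34 in fasted livers was 29 higher, Atf4 among them, and 2 lower. The 9 genes with the composite element in their promoter window all rose in KO livers in both states, with median differences of 1.99 (fed) and 3.21 (fasted). Of the 21 with a window and no match, 10 rose and 3 fell in fed livers and 12 rose and 4 fell in fasted livers. Over all tested genes with a window, 34.9% with a match and 27.8% without one were higher in fed KO livers. No test was made of this split.

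**Figure D1:**
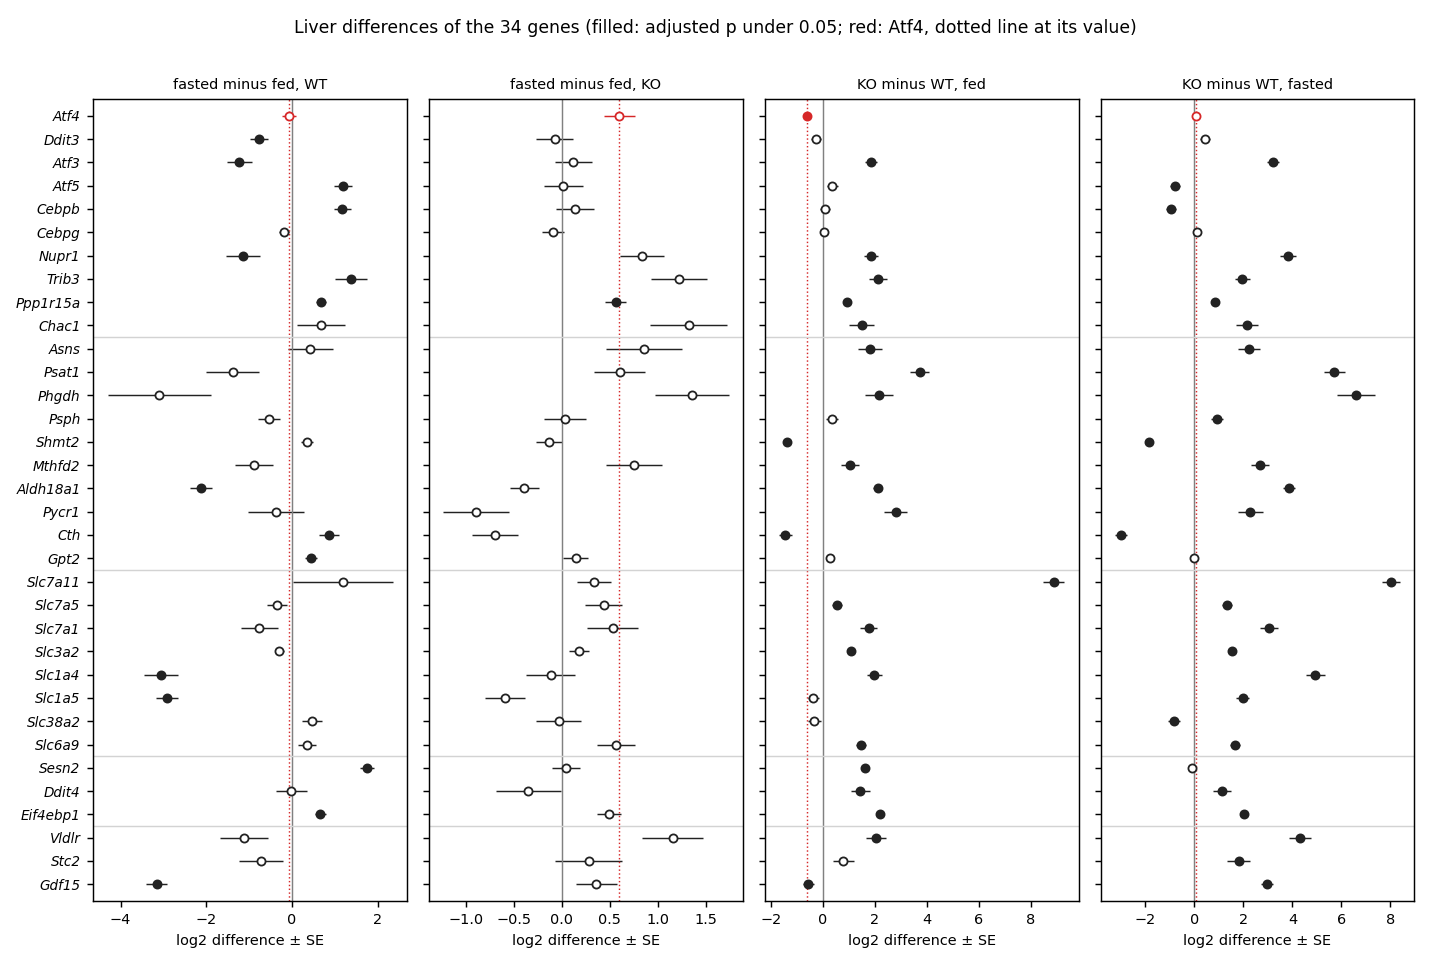
Log2 differences (points) with standard errors (bars) of the 34 genes in 4 liver comparisons, each with its own axis; filled points passed an adjusted p of 0.05, grey lines separate the 5 role groups, and the red point and dotted line mark Atf4. In both KO minus WT panels most filled points lie to the right of Atf4, with Shmt2 and Cth to its left.

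Among the transcription factors and feedback genes, 5 of 10 rose in fed KO livers and 5 of 10 in fasted KO livers. Trib3, the brake on ATF4, stood at 2.08, 4.80 and 3.77 CPM in fed WT and 11.2, 15.5 and 19.2 in fed KO livers. After the fast it stood at 9.41, 8.39 and 9.90 in WT and 46.04, 18.4 and 42.9 in KO. The genotypes did not overlap in either state (2.11 ± 0.35, adjusted p = 1.60e-04 fed; 1.95 ± 0.32, adjusted p = 8.54e-05 fasted), and fasted KO library b was well below libraries a and c.
Chac1 held 0.727, 1.64 and 3.05 CPM in fed WT and 4.80, 3.38 and 7.23 in fed KO livers, and 2.84, 2.76 and 3.16 and 15.6, 5.31 and 17.8 after the fast. It was higher in KO by 1.497 ± 0.49 (adjusted p = 0.0207) and 2.14 ± 0.46 (adjusted p = 9.29e-04). The fed call was lost without fed WT library a (adjusted p = 0.0900), fed WT library b (0.0598) or fed KO library c (0.0892).
Atf3, an early stress-response factor, went from 3.84, 2.51 and 4.99 CPM in fed WT to 14.1, 14.4 and 12.7 in fed KO (1.85 ± 0.22, adjusted p = 6.78e-06). In fasted livers it was 1.29, 1.75 and 1.79 in WT and 13.97, 18.3 and 12.5 in KO (3.21 ± 0.26, adjusted p = 7.94e-08). All KO libraries lay above all WT libraries, and fasted minus fed in KO was 0.12 ± 0.19. Nupr1 rose by 1.85 (fed) and 3.82 (fasted), and Ppp1r15a by 0.93 and 0.82.
Ddit3, often used as a readout of this response, was not called: its log2 difference was −0.26 ± 0.19, adjusted p = 0.287 in fed and 0.43 ± 0.21, adjusted p = 0.0855 in fasted livers. Cebpg, a dimer partner of ATF4, held 34.02 to 46.5 CPM over the 12 livers and passed in no liver comparison. Atf5 and Cebpb were not past the threshold in fed livers (0.37 and 0.08) and were lower in fasted KO than in fasted WT livers (−0.81 ± 0.21, adjusted p = 0.00344; −0.95 ± 0.20, adjusted p = 7.79e-04). With library sizes alone both lost that call (adjusted p = 0.207 and 0.0594).

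Among the 10 enzymes, 6 rose and 2 fell in fed KO livers and 7 rose and 2 fell in fasted KO livers. Asns, Phgdh, Psat1, Aldh18a1, Pycr1 and Mthfd2 rose in both states, and Shmt2 and Cth fell in both. Psat1 read 0.727, 2.51 and 1.63 CPM in fed WT and 0.773, 0.251 and 0.825 in fasted WT livers. KO livers held 20.04, 20.3 and 23.8 CPM when fed and 41.5, 18.3 and 37.7 when fasted. These groups were far apart, with 959 against 46 counts over the 3 libraries of each group, a ratio per total count of 17.2 with a counting interval of 12.8 to 23.7 (fed), and adjusted p = 9.31e-07 and 4.51e-08.
Phgdh, which commits glycolytic carbon to serine, was near the detection limit in WT livers, at 0.519, 0.436 and 0.407 CPM fed and 0.129, 0 and 0 fasted. It held 2.13, 1.76 and 2.28 CPM in fed KO and 7.64, 2.04 and 6.15 in fasted KO livers. In the fasted state this was 216 against 1 counts over the 3 libraries of each group, a ratio per total count of 170.4 with a counting interval of 30.3 to 6759, which covers counting error only. Psph, the last enzyme of serine synthesis, passed only in fasted livers (0.93 ± 0.24, adjusted p = 0.00452; fed 0.35 ± 0.23, adjusted p = 0.226), and the difference between these 2 comparisons was 0.58 (adjusted p = 0.302).
Asns stood at 7.90, 2.40 and 2.04 CPM in fed WT livers, where library a was the highest, and at 18.6, 10.2 and 14.7 in fed KO livers (1.81 ± 0.46, adjusted p = 0.00452). After the fast it was 5.67, 6.64 and 4.26 in WT and 31.7, 11.6 and 35.7 in KO (2.24 ± 0.45, adjusted p = 5.83e-04). Both differences left the genotypes without overlap, and the fasted KO spread came from library b.
For proline, Aldh18a1 rose by 2.12 and 3.86 (adjusted p = 1.76e-07 and 6.02e-09) and Pycr1 by 2.80 and 2.29 (adjusted p = 9.28e-05 and 0.00143). Mthfd2 rose by 1.04 ± 0.34 in fed and 2.68 ± 0.38 in fasted KO livers. Its fed call was lost without fed WT library a (adjusted p = 0.0510), fed WT library c (0.0638) or fed KO library a (0.117).
Shmt2, which acts in the same mitochondrial pathway as Mthfd2, moved the other way. It read 426, 353 and 425 CPM in fed WT and 184, 140.3 and 141 in fed KO livers (−1.37 ± 0.14, adjusted p = 1.36e-06), and 534, 516 and 477 and 121, 151 and 151 after the fast (−1.85 ± 0.14, adjusted p = 4.27e-08). Cth, of the transsulfuration pathway, held 245, 259 and 291 CPM in fed WT, 134, 69.1 and 89.9 in fed KO, 522, 513 and 404 in fasted WT and 37.97, 75.7 and 67.2 in fasted KO livers. It was lower in KO by −1.44 ± 0.24 (adjusted p = 1.73e-04) and −2.99 ± 0.26 (adjusted p = 1.33e-07). The summed hepatocyte markers were lower in KO as given above, and their part in these differences was not tested. Gpt2, at 510, 433 and 544 CPM in fed WT livers, was not called in either state (0.26 and −0.03).

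Slc7a11 (chr3:49892526-50443614), the cystine carrier, was the member with the largest difference in KO livers. In WT livers it was all but absent, at 0, 0.109 and 0.102 CPM fed and 0.387, 0.125 and 0 fasted. KO livers held 28.9, 37.5 and 47.6 CPM fed and 44.9, 52.8 and 46.4 fasted. The fed groups had 1708 against 2 counts over the 3 libraries of each group, a ratio per total count of 706 with a counting interval of 195 to 5834, and the fasted groups 2003 against 4 counts over the 3 libraries of each group, a ratio per total count of 395 with a counting interval of 154 to 1451 (adjusted p = 1.11e-09 and 8.03e-10). Every KO library was far above every WT library. Slc7a11 is also a known target of the oxidative-stress factor NRF2. Its promoter window is shown whole up to the start (RefSeq, GRCm38.p6, chr3:50443614-50443863, minus strand, printed along the gene's strand), since it alone among these genes holds 2 matches, which are in capitals.
Slc7a11, the 250 bases before the start: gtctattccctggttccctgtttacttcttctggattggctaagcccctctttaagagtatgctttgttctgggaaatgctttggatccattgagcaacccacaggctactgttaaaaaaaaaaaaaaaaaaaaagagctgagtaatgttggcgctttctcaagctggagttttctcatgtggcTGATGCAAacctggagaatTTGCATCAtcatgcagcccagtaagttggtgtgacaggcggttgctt

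Of the 8 carriers, 6 rose in fed KO livers and 7 in fasted KO livers. Slc1a4 held 11.01, 21.8 and 9.98 CPM in fed WT and 1.42, 2.88 and 0.687 in fasted WT livers. In KO livers it held 58.3, 67.02 and 43.8 (fed) and 43.7, 53.8 and 58.9 (fasted), with fasted minus fed at −0.11 ± 0.26 in KO and −3.07 ± 0.40 in WT. The log2 differences between genotypes were 1.99 ± 0.28 and 4.94 ± 0.37 (adjusted p = 3.32e-05 and 4.19e-08).
Slc1a5, a glutamine carrier of the same family, passed only after the fast: 23.3, 27.3 and 16.3 against 17.5, 18.5 and 15.7 CPM in fed WT and KO (−0.37 ± 0.20, adjusted p = 0.156), and 4.25, 1.63 and 2.89 against 11.9, 10.96 and 11.5 in fasted livers (1.97 ± 0.26, adjusted p = 1.23e-05). That the fasted difference was the greater one is tested by the interaction given further on. Slc7a1 rose by 1.76 and 3.05, Slc6a9 by 1.47 and 1.67, and Slc3a2 by 1.08 and 1.55.
Slc7a5, which needs Slc3a2 to reach the membrane, rose by 0.54 ± 0.21 in fed livers (adjusted p = 0.0422). This call was lost by DESeq2 (adjusted p = 0.0526) and without any 1 of the 6 fed libraries except fed KO library b (adjusted p up to 0.142). In fasted livers Slc7a5 rose by 1.33 ± 0.21 (adjusted p = 8.23e-05). Slc38a2 went against the other carriers in the fasted state, at 148, 188 and 223 CPM in WT and 98.1, 112 and 106 in KO (−0.83 ± 0.24, adjusted p = 0.00860), a call that was lost with library sizes alone (adjusted p = 0.265).

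The brakes on growth were higher in fed KO livers, all 3 of them. Eif4ebp1 read 67.5, 53.5 and 71.2 CPM in fed WT and 302, 286 and 284 in fed KO livers, and 103, 105 and 95 and 414, 358 and 453 after the fast. The differences of 2.18 ± 0.13, adjusted p = 9.27e-09, and 2.02 ± 0.13, adjusted p = 1.06e-08, had among the smallest errors of the 34 genes. Sesn2, a leucine sensor that restrains mTORC1, held 13.2, 14.8 and 18.02 CPM in fed WT livers. It held 49.7, 47.7 and 57.7 in fasted WT, 52.2, 45.8 and 43.5 in fed KO and 49.1, 56.7 and 39.6 in fasted KO livers. The last 3 groups overlapped one another, and fed WT lay below all of them (1.62 ± 0.16, adjusted p = 8.20e-07 for fed KO minus fed WT; −0.09 ± 0.15, adjusted p = 0.615 for fasted livers). Ddit4 was uneven among fed WT livers, at 10.5, 44.7 and 13.8 CPM, with library b close to the KO values of 72.96, 50.9 and 64.04. It rose by 1.45 ± 0.36 (adjusted p = 0.00374) in fed and 1.11 ± 0.36 (adjusted p = 0.0161) in fasted KO livers.

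Vldlr rose from 1.87, 3.16 and 2.95 to 13.9, 10.9 and 8.44 CPM in fed livers (2.05 ± 0.39, adjusted p = 5.07e-04). Fasted livers held 1.80, 0.626 and 1.24 CPM in WT and 23.9, 12.2 and 38.1 in KO (4.33 ± 0.45, adjusted p = 9.50e-07). In both states no WT library reached a KO library. Stc2 was low throughout and passed only in fasted livers (1.80 ± 0.45, adjusted p = 0.00322; fed 0.79 ± 0.40, adjusted p = 0.120), while the difference between these comparisons was 1.01 (adjusted p = 0.331). Gdf15 was scattered in fed WT livers, at 147, 69.9 and 102 CPM, and tight in fed KO livers, at 70.2, 70.5 and 74.5. The groups overlapped, and the fed difference of −0.57 ± 0.21, adjusted p = 0.0379 was lost without any 1 of the 6 fed libraries except fed WT library b (adjusted p up to 0.305), with library sizes alone (0.459), by DESeq2 (0.0549) and in a fit of the compared groups only (0.0580). After the fast Gdf15 held 8.76, 11.5 and 15.5 CPM in WT and 85.9, 101 and 89.1 in KO livers (2.95 ± 0.24, adjusted p = 8.74e-08).

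**Figure D2:**
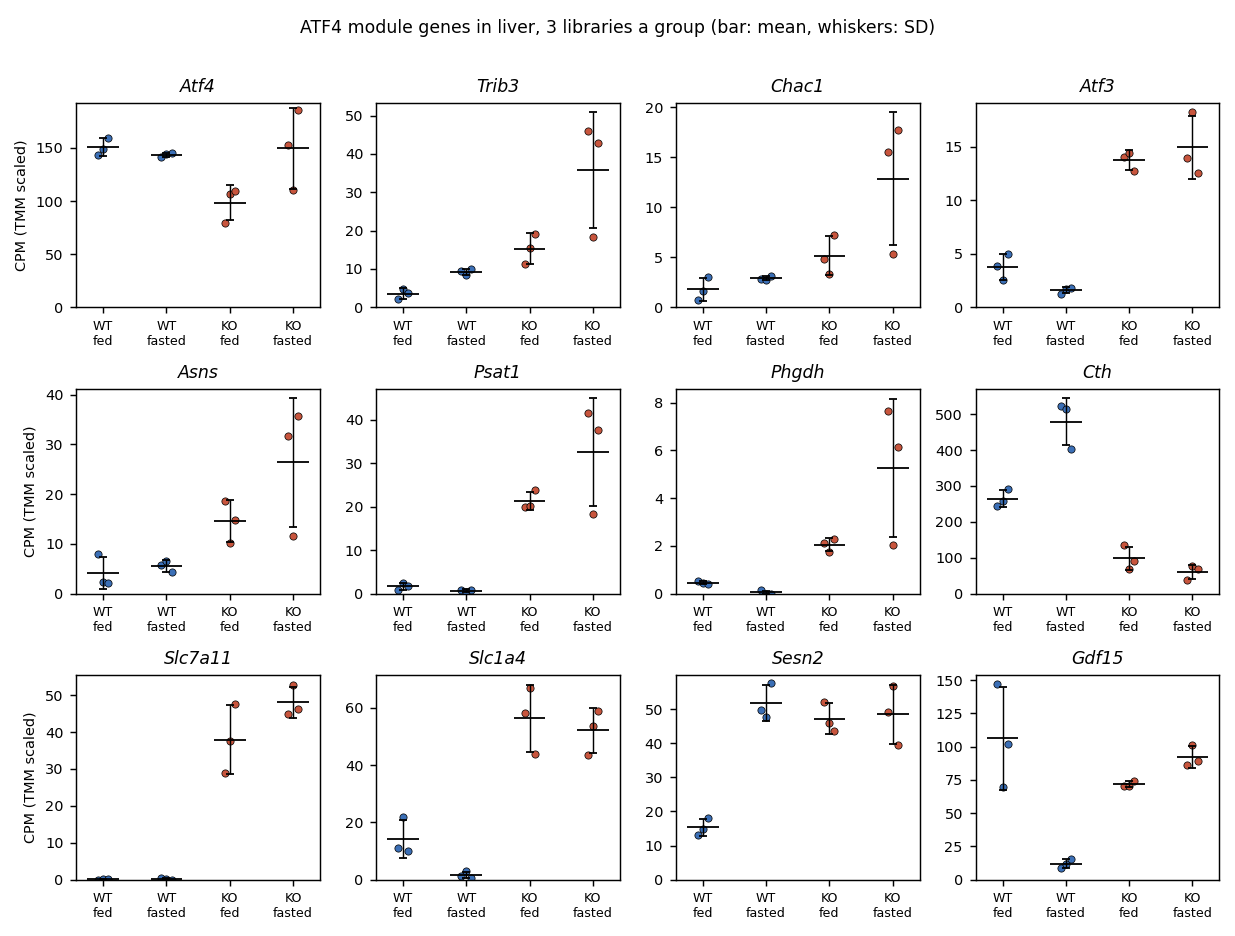
Scaled CPM of 12 of the 34 genes in the 4 liver groups (blue WT, red KO); points are libraries, the long bar is the mean and whiskers show the SD of 3 libraries. Slc7a11, Psat1 and Slc1a4 stood above all WT libraries in every KO library, Atf4 was lowest in fed KO livers, Cth was lower in KO, and Sesn2 was low only in fed WT livers.

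Fasting moved the response of WT livers both ways. Of the 34 genes 8 rose and 7 fell, with a median of −0.24, while 26.3% of all genes passed (12.4% higher, 14% lower). With library sizes alone 7 were higher and 10 lower, as they were without the filter on low counts (7 and 10). Atf4 itself did not pass (−0.07 ± 0.16, adjusted p = 0.794). Sesn2 rose most, by 1.75 ± 0.16 (adjusted p = 1.90e-06), followed by Trib3 (1.38), Atf5 (1.19) and Cebpb (1.17). Atf5 read 229, 359 and 299 CPM fed and 751, 619 and 657 fasted, and Cebpb, a factor known for its part in gluconeogenic gene control, 129, 265 and 158 and 361, 431 and 450.1. Neither pair of groups overlapped. Cth (0.86), Ppp1r15a (0.67), Eif4ebp1 (0.66) and Gpt2 (0.44) also rose.
The genes that fell on fasting were led by Gdf15 (−3.16 ± 0.24, adjusted p = 5.45e-07), Slc1a4 (−3.07 ± 0.40, adjusted p = 5.08e-05), Slc1a5 (−2.93 ± 0.26, adjusted p = 1.65e-06) and Aldh18a1 (−2.13 ± 0.26, adjusted p = 3.01e-05). Atf3 (−1.23), Nupr1 (−1.13) and Ddit3 (−0.77) fell as well. In the same comparison 10 of 10 macrophage markers and 5 of 10 stellate and fibroblast markers fell, and the part of these cells in the result was not tested. Some of these calls rested on single libraries. The call of Nupr1 was lost without any 1 of the 6 WT libraries (adjusted p up to 0.131). The call of Gpt2 was lost without fed library a or b or fasted library a or b (adjusted p up to 0.121), that of Cth without fed library a or fasted library a (0.0539 and 0.0543), that of Trib3 without fed library a (0.0601) and that of Ddit3 without fasted library c (0.0564).

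In KO livers few genes passed between the fasted and fed states. By edgeR 1 of the 34 genes passed, Ppp1r15a (0.56 ± 0.11, adjusted p = 0.0304), and 1.39% of all genes. Of the 34, 17 had an unadjusted p under 0.05, a count that was not set against the share of all genes at that threshold. No conclusion is drawn from this count. Atf4 did not pass (0.60 ± 0.16, adjusted p = 0.0747), although its fasted libraries all lay above its fed libraries. Without fasted KO library b, 5.05% of all genes passed (2.20% higher), and 10 of the 34 passed, all higher in fasted KO livers: Atf4 (0.78, adjusted p = 0.00840), Trib3 (1.54), Phgdh (1.74), Vldlr (1.48), Chac1 (1.70), Slc7a1 (0.85), Eif4ebp1 (0.58), Ppp1r15a (0.56), Psat1 (0.89) and Mthfd2 (1.02). Library b was the lowest fasted KO library for all of these genes but Ppp1r15a. Leaving it out raises their differences by construction, so no conclusion is drawn from these calls. The call of Ppp1r15a in the fit of all libraries was lost without fed KO library a or c, or fasted KO library a or c. The adjusted p was then 0.102, 0.104, 0.0956 and 0.142. Library b was the lowest of the 3 fasted KO libraries for 20 of the 34 genes, against 32.2% of all genes. Atf4 and its targets Trib3, Chac1, Asns, Psat1, Phgdh, Slc7a1 and Vldlr were among these 20, and Slc7a11, Atf3, Gdf15 and Sesn2 were highest there.

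The response to fasting differed between genotypes, by a test of that difference, for 12 of the 34 genes (12.1% of all genes, 6.35% more positive in KO and 5.70% more negative). It was more positive in KO for 8: Phgdh (4.45 ± 1.23), Gdf15 (3.52 ± 0.32), Slc1a4 (2.95 ± 0.48), Slc1a5 (2.34 ± 0.33), Vldlr (2.27 ± 0.63), Nupr1 (1.97 ± 0.45), Aldh18a1 (1.74 ± 0.31) and Atf3 (1.35 ± 0.35). All of these had a negative fasting difference in WT livers. It was more negative in KO for Sesn2 (−1.71 ± 0.21), Cth (−1.55 ± 0.34), Atf5 (−1.18 ± 0.29) and Cebpb (−1.03 ± 0.28), 4 genes that rose with fasting in WT livers and were at 0.04, −0.70, 0.02 and 0.14 in KO livers, below the threshold of the test. For Atf4 the interaction was 0.67 ± 0.23, adjusted p = 0.0722. It passed with library sizes alone (0.80, adjusted p = 0.0310), by DESeq2 (0.0472) and without the filter on low counts (0.00154). It also passed without fasted KO library b (0.00992), the lowest fasted KO library for Atf4. Calls of the interaction rested on single libraries for 4 genes. Atf3 lost its call without fed WT library c or fasted WT library a (adjusted p up to 0.0634), and Phgdh without fed WT library a or b or fasted WT library b or c (up to 0.0751). Vldlr lost it without fed WT library b or c, fasted WT library b or c or fed KO library c (up to 0.0801). Cebpb lost it without fed WT library a or c, fasted WT library b or c, fed KO library a or c or fasted KO library a (up to 0.0659). The interaction count was 18 without fasted KO library b, where 11.9% of all genes passed (5.92% more positive in KO), and 9 without fed WT library c, fasted WT library b or fasted WT library c.

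Neighbouring branches of the stress response were read from lists of their own. Cytosolic tRNA synthetases, which charge tRNA and are known ATF4 targets in part, were mixed in fed KO livers (3 of 13 higher, 5 lower, median 0.14). The count of higher ones was close to the share of all genes. In fasted livers 8 were higher and 3 lower (median 0.60), with Sars at 1.37, Gars at 1.47 and Cars at 1.13. Aars had a lower mean CPM in KO than in WT livers, at 182 and 340 fed and 181 and 232 fasted. Further ATF4 targets were higher in 11 and lower in 2 of 16 tested in fed livers. Tnfrsf10b, a death receptor, was at 5.08 and the mitochondrial folate enzyme Mthfd1l at 3.54, while the growth factor Vegfa was at −1.59. Herpud1 also had a lower mean CPM in KO than in WT livers, at 239 and 814 fed and 287 and 893 fasted. Fasting raised 7 of the 16 in WT livers, among them the hormone Fgf21 (3.37) and the autophagy genes Sqstm1 (1.12) and Map1lc3b (1.11), and lowered 2.
Chaperones of the endoplasmic reticulum, which answer to ATF6 and XBP1 more than to ATF4, went the other way. All 15 fell in fed KO livers (median −1.32), among them Hspa5 (−1.94), Hyou1 (−2.33) and Manf (−2.22), and 12 of 15 fell in fasted KO livers. Fasting lowered 14 of 15 in WT livers. Hepatocyte markers were lower in the same KO livers and higher in fasted WT livers, and their part was not tested. Of the eIF2 kinases, eIF2B subunits and phosphatase genes, Eif2ak4, which encodes GCN2, was higher in KO livers by 1.01 (fed) and 1.51 (fasted), Eif2ak3 (PERK) by 0.63 and 0.95, and Ppp1r15b, the constitutive partner of the eIF2 phosphatase, fell by 1.03 and 1.04. The list did not move as a whole. Mean CPM was lower in fed KO than in fed WT livers for Gcn1 (45.3 and 65.0), Eif2b1, Eif2b3, Eif2b4 and Eif2b5. It was higher for Eif2ak1, Eif2ak2, Eif2s1 and Eif2b2.

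In fibroblasts the 24 columns are named here by their headings, GFP or CRE with basal, starve (methionine-free), 1 h and 4 h (methionine returned). The values went against those headings in one respect. Withdrawal of an amino acid is a known activator of ATF4 and its return is known to end the response, but under GFP the target genes stood highest in the columns headed 1 h and 4 h, and under CRE in the columns headed basal and starve. Whether each heading matches the culture it names was not tested, so the headings serve only as column names, and no direction below is ascribed to the virus or to methionine. Pik3r4 was higher under CRE in 3 of the 4 media (differences from 0.05 to 0.23). The cells had the markers of fibroblasts (12934 to 13579 CPM of recovered counts in GFP basal columns) and at most 1.65 CPM of hepatocyte markers. Fibroblast markers summed lower in the starve and 4 h columns of both headings, 9887 to 10652 and 8041 to 8640 CPM under GFP and 8218 to 8458 and 8505 to 9024 under CRE, than in the basal and 1 h columns, 12934 to 13579 and 11295 to 12129 under GFP and 11816 to 12579 and 12104 to 12288 under CRE. Library 3 of CRE 4 h stood apart: its counts differed from those of its 2 replicates by a chi-square per degree of freedom of 20.04 and 18.03, against 1.89 to 5.14 for all other MEF replicate pairs. Gdf15 lay within 1 of the lowest value in the table, at 4.17 to 5.10 in all columns, and was not tested, which leaves 33 of the 34 genes. The transformation compresses low values, so differences of low genes are understated.

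Atf4 took 2 levels. Under GFP it read 12.57, 12.56 and 12.60 in basal and 12.71, 12.74 and 12.79 in starve columns, and 13.94, 13.89 and 14.06 at 1 h and 14.06, 14.10 and 14.14 at 4 h. Under CRE it read 13.50, 13.60 and 13.64 in basal and 13.82, 13.87 and 13.84 in starve columns, and 12.42, 12.45 and 12.42 at 1 h and 12.75, 12.74 and 12.67 at 4 h. In falling order the group means were 14.10 (GFP 4 h), 13.97 (GFP 1 h), 13.84 (CRE starve), 13.58 (CRE basal), 12.75 (GFP starve), 12.72 (CRE 4 h), 12.58 (GFP basal) and 12.43 (CRE 1 h). The widest gap in this order lies between the upper 4 groups and the lower 4. Among neighbours in this order, the libraries of GFP 4 h and GFP 1 h overlapped, as did those of GFP starve and CRE 4 h. CRE differed from GFP by 1.01 ± 0.04 in basal, 1.09 ± 0.04 in starve, −1.54 ± 0.04 in 1 h and −1.38 ± 0.04 in 4 h columns (adjusted p = 6.86e-20, 5.43e-21, 8.60e-25 and 1.30e-23).

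Here the targets moved with Atf4. Of 33 genes 31 were higher under CRE in basal columns (median 1.13) and 30 in starve columns (median 1.15), where Ddit4 alone was lower in both. At 1 h 32 of 33 were lower under CRE (median −0.81) and at 4 h 28 (median −0.68). Of all 13914 genes tested, 58.3%, 62.6%, 55.0% and 59.8% passed in these 4 comparisons in either direction (29.7% and 32.0% higher in the first pair, 28.1% and 29.0% lower in the second), with medians at 0.00 to 0.01. Without CRE 4 h library 3 the 4 h count of members was 30, against 29 with it, and the counts from starve to 4 h (28) and from 1 h to 4 h (24) under CRE were the same without it. The number of genes with the sign of Atf4 among those past the threshold was 30 of 31, 29 of 30, 31 of 31 and 27 of 28 in the same order. In fed livers the same count was 3 of 24. There the Atf4 difference did not pass with library sizes alone, and Gdf15, among these 3, lost its call in several alternatives, as given above. Every GFP 1 h and 4 h library lay above every GFP basal and starve library for 32 of the 33 genes, all but Atf5 (22.2% of all genes). Every CRE basal and starve library lay above every CRE 1 h and 4 h library for 19 of the 33 (15.8% of all genes).

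**Figure D3:**
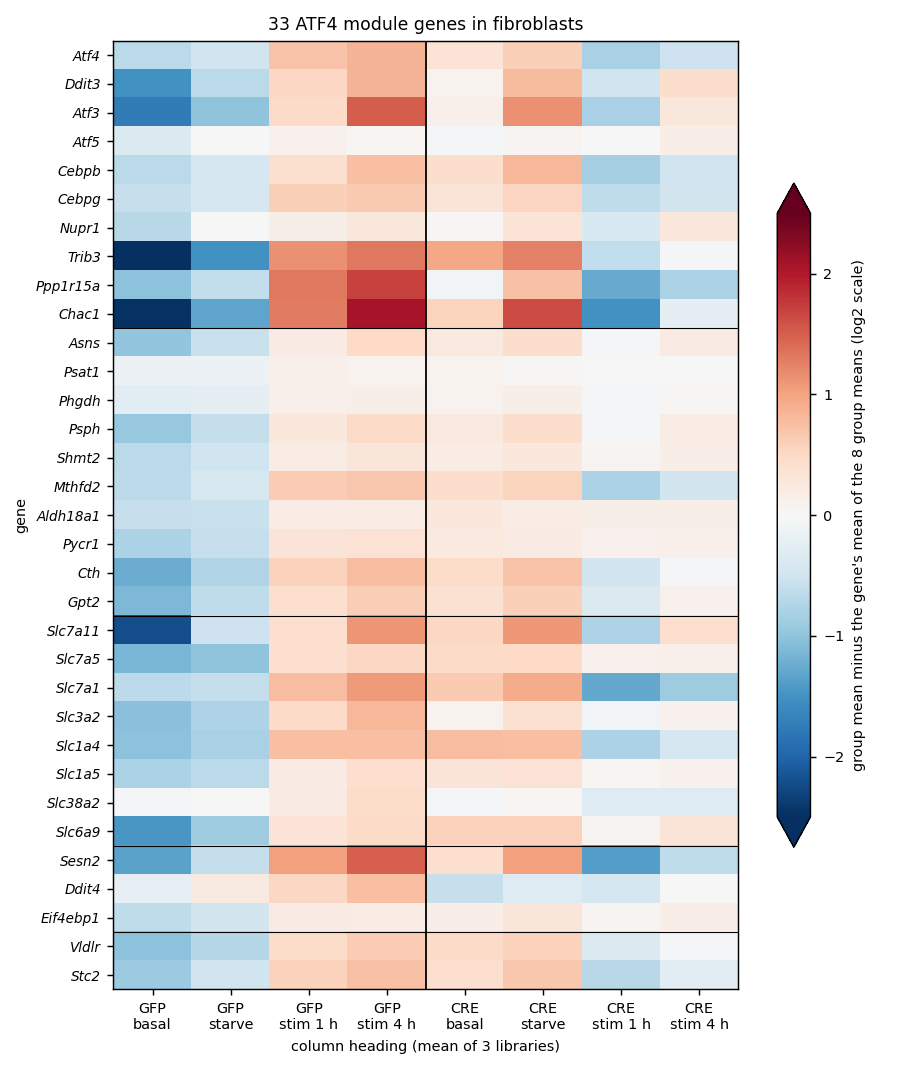
Group means of 33 genes (rows, by role) in the 8 MEF groups (columns, by heading), each minus the gene's mean over the 8 groups on the deposited log2 scale; red is higher and blue lower. Under GFP most rows turn from blue in the basal and starve columns to red at 1 h and 4 h, and under CRE most are red in the basal and starve columns and paler or blue at 1 h and 4 h.

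Chac1 had the widest span of the transcription factor and feedback group. It read 9.27, 9.27 and 9.32, then 10.46, 10.32 and 10.55, then 13.01, 13.04 and 13.10, then 13.73, 13.82 and 13.93 in GFP basal, starve, 1 h and 4 h columns. Under CRE it read 12.20, 12.34 and 12.39, then 13.39, 13.40 and 13.35, then 10.23, 10.22 and 10.29, then 11.57, 11.43 and 11.51 in the same order. Groups next to each other under 1 heading did not overlap, and CRE minus GFP was 3.02 ± 0.05, 2.94 ± 0.05, −2.80 ± 0.05 and −2.32 ± 0.05 over the 4 media (adjusted p = 3.50e-28, 7.99e-28, 2.40e-27 and 3.72e-25).
Trib3 had group means of 8.73, 9.73, 12.39 and 12.57 under GFP and 12.23, 12.52, 10.63 and 11.23 under CRE. Its basal difference between the headings, 3.498 ± 0.05, adjusted p = 2.73e-32, was the highest of the 33. Ppp1r15a, whose product reverses eIF2 phosphorylation, was lower under CRE by 2.59 at 1 h and 2.5 at 4 h, and higher by 0.96 and 1.33 in basal and starve columns.
Ddit3, not called between genotypes in liver, was higher under CRE by 1.61 and 1.46 in basal and starve columns, and lower by 1.01 and 0.41 at 1 h and 4 h. Atf5 was the least moved of the group: its 8 group means lay between 12.09 (GFP basal) and 12.61 (CRE 4 h). Its difference at 1 h of −0.10 ± 0.04 lost its call when each library was shifted to 1 median (−0.03) and without any 1 of the 6 libraries compared except GFP 1 h library 2 (adjusted p up to 0.103). Its positive difference at 4 h (0.11 ± 0.04) lost its call without GFP 4 h library 2 (0.09) or CRE 4 h library 1 (0.07).

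The enzymes differed in how far they went down under CRE. Cth spanned 9.65 to 11.66 under GFP and 10.40 to 11.61 under CRE, and Cth, Gpt2 and Mthfd2 were all lower under CRE than under GFP at 1 h (−1.06, −0.78 and −1.42). Asns read 11.47, 11.52 and 11.59 in GFP basal and 12.98, 12.98 and 13.05 in GFP 4 h columns. Under CRE it read 12.69, 12.73 and 12.82 in basal and 12.51, 12.46 and 12.47 in 1 h columns, and CRE minus GFP at 1 h was −0.25 ± 0.04 (adjusted p = 5.26e-06). Psat1, Phgdh, Shmt2, Aldh18a1 and Pycr1 stood higher in GFP 1 h than GFP starve columns (0.28, 0.35, 0.68, 0.73 and 0.89) but differed little between CRE starve and CRE 1 h columns (−0.06, −0.18, −0.21, −0.04 and −0.10; Phgdh and Shmt2 past the threshold). Of the calls at 1 h, Psat1 (−0.08), Phgdh (−0.07) and Shmt2 (−0.06) lost theirs when each library was shifted to 1 median. Shmt2 also lost it without GFP 1 h library 1 or 3 or CRE 1 h library 1 or 2 (adjusted p up to 0.119). The same 5 genes had levels in GFP basal columns below those in CRE 1 h columns.

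Slc7a11 was higher at each step under GFP, from 7.89, 7.90 and 7.95 (basal) to 9.54, 9.61 and 9.67 (starve), 10.23, 10.75 and 10.67 (1 h) and 11.23, 11.25 and 11.23 (4 h). Under CRE it went from 10.62, 10.62 and 10.72 and 11.18, 11.31 and 11.15 to 9.41, 9.38 and 9.29 and 10.32, 10.41 and 10.91, with library 3 of the last group high. Its step from basal to starve, 1.70 ± 0.13 under GFP, was the highest of the 33 genes. Slc7a1 and Slc1a4 had the same 4 upper groups as Atf4 (GFP 1 h and 4 h, CRE basal and starve), though in another order, and were lower under CRE at 1 h by 2.06 and 1.56. Slc1a4 was level in the 4 upper groups, at 12.53, 12.53, 12.54 and 12.53.
Slc7a5 read 12.55 in GFP basal and 14.12 in GFP 1 h columns, and 14.20 in CRE starve and 13.79 in CRE 1 h columns. Its CRE basal and starve libraries all lay above its CRE 1 h and 4 h libraries. Slc1a5 (−0.16) and Eif4ebp1 (−0.14) had small differences at 1 h, and both lost their calls when each library was shifted to 1 median or without GFP 1 h library 3; Slc1a5 also did without GFP 1 h library 1 or CRE 1 h library 1 (adjusted p up to 0.173). Slc38a2 did not differ past the threshold in basal (0.00 ± 0.04) or starve columns (0.03 ± 0.04) and was lower under CRE at 1 h (−0.52) and 4 h (−0.78).
Among the growth brakes, Sesn2 read 8.49, 8.61 and 8.67, then 9.35, 9.30 and 9.33, then 10.85, 10.97 and 11.02, then 11.40, 11.45 and 11.43 under GFP. Under CRE it read 10.18, 10.41 and 10.44, then 10.94, 10.95 and 10.95, then 8.49, 8.55 and 8.59, then 9.36, 9.26 and 9.25. Ddit4 was the exception of the set. It was lower under CRE in all 4 media (−0.38, −0.55, −0.95 and −0.74; adjusted p = 7.43e-07, 3.65e-10, 1.53e-15 and 5.56e-13), and read 9.22, 9.07 and 9.15 in GFP basal and 8.80, 8.79 and 8.70 in CRE basal columns. Vldlr and Stc2 were higher under CRE by 1.51 and 1.32 in basal columns and lower by 0.81 and 1.26 at 1 h.

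**Figure D4:**
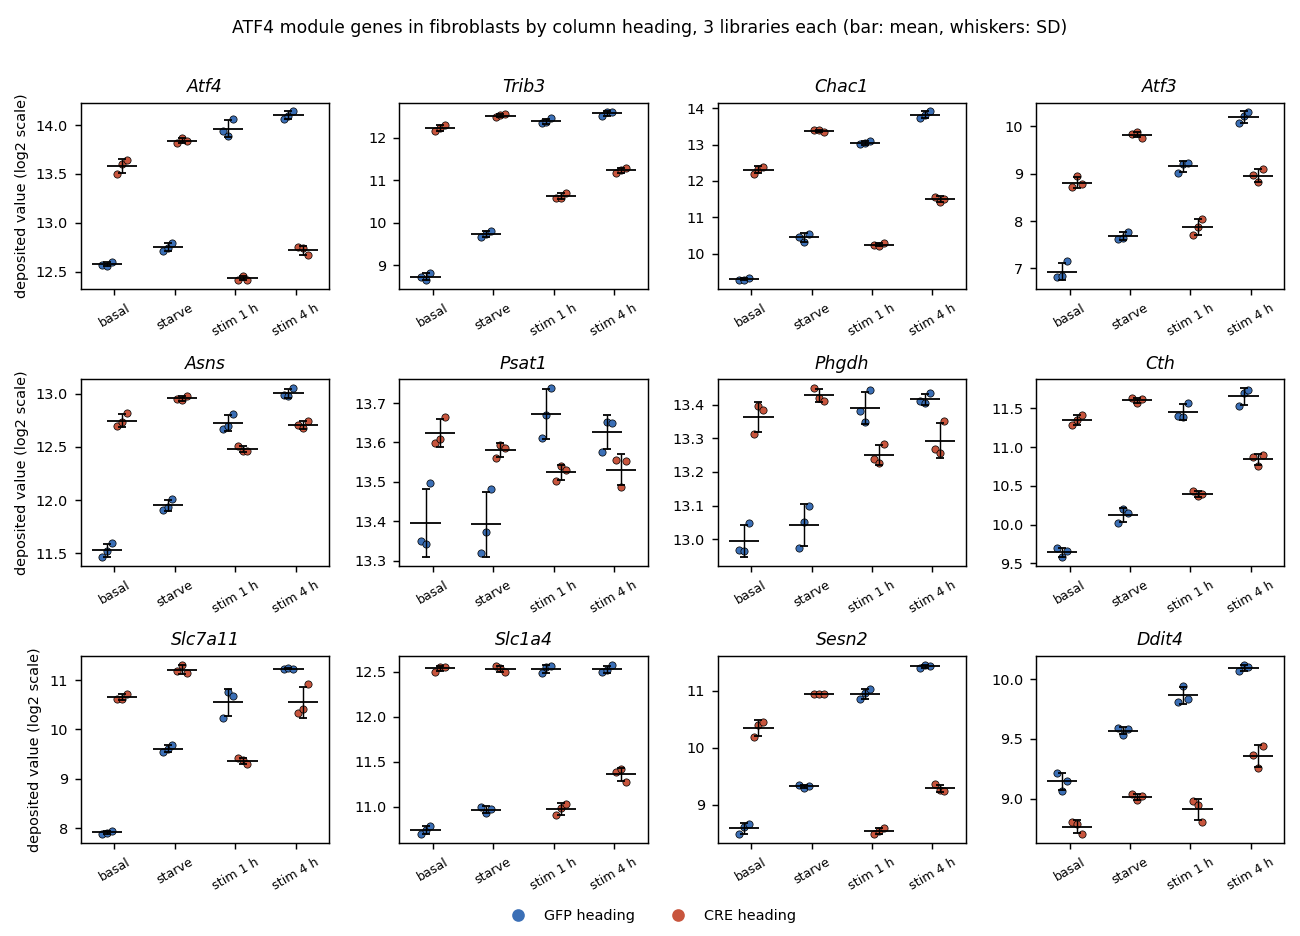
Deposited log2-scale values of 12 of the 34 genes by medium heading, blue for GFP and red for CRE columns; points are libraries, the long bar is the mean and whiskers show the SD of 3 libraries. The headings cross between the starve and 1 h columns for Atf4 and most targets, while Ddit4 under CRE stays below GFP in all 4 media.

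Smaller steps recurred under both headings. From basal to starve columns 27 of 33 genes were higher under GFP (23.6% of all genes passed, 10.0% higher) and 22 under CRE (28.5%, 15.0% higher), and Atf4 was higher by 0.17 ± 0.04 and 0.26 ± 0.04. From 1 h to 4 h columns 22 were higher under GFP (36.7% passed, 17.9% higher) and 24 under CRE (25.4%, 13.4% higher), with Atf4 at 0.14 ± 0.04 and 0.29 ± 0.04. The Atf4 step from 1 h to 4 h under GFP lost its call without GFP 1 h library 2 or GFP 4 h library 3 (0.10 and 0.12). The basal to starve step differed between the headings for 10 of 33 genes (4.78% of all genes), with Slc7a11 (−1.14), Trib3 (−0.71) and Slc6a9 (−0.56) smaller under CRE and Ppp1r15a larger (0.38). The 1 h to 4 h step differed for 10 of 33 (7.14%), among them Ddit3 (0.60), Nupr1 (0.55) and Chac1 (0.48), larger under CRE. From starve to 4 h columns 32 of 33 were higher under GFP (66.1% of all genes passed, 33.3% higher). Under CRE 26 were lower and 2 higher, namely Ddit4 (0.34) and Atf5 (0.10). Of all genes 51.8% passed there, 25.9% lower and 26.0% higher. From basal to 1 h columns 33 were higher under GFP (58.8% passed, 29.2% higher, 29.6% lower) and 30 lower under CRE (48.2%, 25% lower). The step from starve to 1 h was upward under GFP for 33 of 33 genes (59.5% of all genes passed, 30.7% higher). Under CRE it was downward for 28 (60.1% passed, 30.1% lower). This step differed between the headings for all 33 (66.5% of all genes). This last test was added after the data were seen. These comparisons share columns and are not independent.

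Other lists in the fibroblasts moved in part with Atf4. Of all genes tested, 29.7%, 32.0%, 26.9% and 30.8% were higher under CRE in basal, starve, 1 h and 4 h columns. In the same order 28.6%, 30.6%, 28.1% and 29.0% were lower. All 13 tRNA synthetases were higher under CRE in basal and starve columns, with Aars at 1.21 and 1.04, and 12 of 13 were lower at 1 h and 12 at 4 h. Of 17 further ATF4 targets tested, 15 were higher in basal, 15 in starve, 1 in 1 h and 1 in 4 h columns and 0, 1, 13 and 13 were lower, with Gadd45a, a growth-arrest gene, at 1.87, 1.75, −2.63 and −2.02 over the 4 media, and Herpud1, of protein disposal from the endoplasmic reticulum, at 1.57, 1.77, −2.48 and −2.45. Chaperones under ATF6 and XBP1 were split, 3 higher and 10 lower in basal columns and 9 higher and 3 lower at 4 h. Dnajb9 went with Atf4 (1.06, 1.10, −1.23 and −1.07). The 9 genes with the composite element shown above were higher under CRE in basal and starve columns in 9 of 9 cases and lower at 1 h in 9 of 9, and of 20 tested without a match 18, 17 and 19 did so. At 4 h 8 of 9 with a match were lower (median −0.68) and 17 of 20 without (median −0.74). Over all tested genes with a window, 39.0% with a match and 30.1% without were higher in basal columns.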

How the data were processed

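The submitters' processing notes name mm10, HISAT2, Subread, DESeq2 and edgeR for liver, and mm10, STAR 2.7.10b, featureCounts, DESeq2 and limma for MEFs, without their roles. The authors deposited liver gene counts (whole numbers, 136300 genes, 87774 of them NONCODE identifiers) and MEF values on the log2 scale of a variance-stabilising transformation, as the deposited table's name says. Ensembl identifiers were paired with symbols through GENCODE vM21. Liver counts were filtered (filterByExpr, 23875 genes kept), scaled by trimmed means and tested with edgeR 4.0.16 (R 4.3.3) over all 4 groups. MEF values were tested with limma 3.58.1 (trend, robust) over all 8 groups, for 13914 genes with a mean at least 1 above the lowest value of 4.17. Inverting the transformation gave whole counts for 100% of values within 0.01 (19345029 to 21245006 per library), which were used for markers, replicate checks and edgeR. P-values were Benjamini-Hochberg adjusted over all genes tested. Intervals on counts are exact at 95% and cover counting error only. DESeq2 1.42.0, other scalings, filters, subsets and the leaving out of each library were alternatives, and scripts were tested on simulated data. Replicate pairs in liver differed by a chi-square per degree of freedom of 7.40 to 16.7, so no library was counted as a copy. The members and lists were chosen with earlier results of these data known. All members were described. Values in every library were printed for Atf4 and for some members of each role group, and the choice followed no fixed rule. Aldh18a1 and Pycr1, for example, were given by differences only in liver, though their adjusted p in fed livers was smaller than that of Asns. Of other lists, up to 4 genes with the smallest adjusted p were named, and some further genes were named by their mean CPM.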

Additional observations from a re-analysis of the deposited data

Results flagged for a closer look

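Fasting differences that were not alike in WT and KO livers, by the interaction test, were found for 12 of the 34 genes (12.1% of all genes), and 5 differed by more than 2 log2 units: Phgdh (4.45), Gdf15 (3.52), Slc1a4 (2.95), Slc1a5 (2.34) and Vldlr (2.27). The Phgdh value rests on 1 count in fasted WT livers and is no measure of size.

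In MEFs the step from basal to starve differed between the GFP and CRE headings for 10 of 33 members (4.78% of all genes) and the step from 1 h to 4 h for 10 members (7.14%). The step from starve to 1 h, in a test added after the data were seen, differed for 33 members (66.5%). It differed by more than 2 log2 units for 17 of them, all lower under CRE: Chac1 (−5.74), Trib3 (−4.55), Sesn2 (−4.02), Ppp1r15a (−3.92), Slc7a1 (−3.57), Atf3 (−3.42), Slc1a4 (−3.12), Slc7a11 (−2.79), Atf4 (−2.63), Cth (−2.53), Cebpb (−2.48), Ddit3 (−2.47), Stc2 (−2.41), Mthfd2 (−2.39), Cebpg (−2.18), Vldlr (−2.10) and Gpt2 (−2.02).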

How the results depend on the processing

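The count of members past the threshold stayed within 1.5 times its value in every comparison and alternative run except fasting in KO livers. There the 1 member by edgeR became 12 without the filter on low counts, 5 by DESeq2 and 3 with Ensembl genes only. It became 0 in a fit of the compared groups alone and 0 to 10 on leaving out 1 library. The 17 members with an unadjusted p under 0.05 were not set against a share of all genes. Nor were these counts, apart from the run without fasted KO library b. No conclusion on a fasting response in KO livers is drawn from them. The cause was not tested. The range on leaving out 1 library was 11 to 15 for fasting in WT livers, 21 to 25 for genotype in fed livers, 29 to 30 in fasted livers and 9 to 18 for the interaction, which gave 18 without the filter. Of 6935 single-gene values under an alternative, 6705 kept direction and call, 220 lost the call, 9 gained it and 1 turned: Atf4 between genotypes in fasted livers, −0.12 without fasted KO library c, in a range of −0.12 to 0.24 on leaving out 1 library. Library sizes alone moved the median of all genes to 0.39 (genotype, fed), 0.52 (genotype, fasted), −0.19 (fasting, WT) and 0.15 (interaction); no filter moved it to 0.12 (interaction), and shifting each MEF library to 1 median moved it to 0.17 (starve to 1 h interaction).

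No paired analysis was possible in liver because the columns carry no replicate number. In MEFs a replicate block gave 32, 31, 32 and 30 members for CRE minus GFP in basal, starve, 1 h and 4 h columns, against 32, 31, 32 and 29 without it. Nothing in the labels says what the numbers share. Residuals of same-numbered libraries correlated with r of −0.16 to 0.23 over 84 pairs (median 0.02), against a median of −0.02 over 168 other pairs, so not every pair was above 0.1 and the numbers were not used to pair. As a hint from the data, 17 of 24 libraries correlated best with their own number. Nupr1 from starve to 1 h under GFP lost its call under the block.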
